A study of Mus musculus with 24 samples.

Results

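Liver RNA of mice fed a methionine-restricted (MR) diet made with oxidized casein was compared with liver RNA of mice fed an MR diet made with elemental amino acids, that is, with free amino acids in place of protein. The groups were formed from the labels: 6 libraries labelled as casein MR and 6 labelled as elemental MR, 12 of the 24 libraries of the series. All mice were male, of the inbred strain C57BL6/J and 4 months old, and both MR diets held 0.17% methionine. The other 12 libraries, 6 casein control and 6 elemental control, came from mice on diets with 0.86% methionine, and they gave the same contrast of protein sources without restriction. The label of the casein control diet does not say oxidized. The sources used here do not give the length of feeding, the time of day, the food intake or the rest of the diets. The oxidation of the casein, the form of the protein and the amino acid make-up of the diets therefore cannot be told apart in this comparison. Libraries are named by diet and number, as in C_MR_3438 for a casein MR library and E_MR_3403 for an elemental MR library.

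Methionine is an essential amino acid, and restricting it in rodents changes lipid handling, stress signalling and growth hormone action in the liver. In the methionine cycle, methionine is activated to S-adenosylmethionine, the methyl donor of the cell, then turned into homocysteine, which is either remethylated or passed to cysteine by transsulfuration. Oxidation of casein turns its methionine into the sulfoxide, which reductases of the cell can turn back, and into the sulfone, which they cannot. Fatty acids activate the nuclear receptor PPARalpha, which drives genes of fatty acid transport and oxidation, and hepatocytes along the liver lobule divide the work between a periportal and a pericentral zone.

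The 12 libraries held 15.3 to 19.9 M counted reads, and total counts did not differ detectably between the groups (exact permutation p = 0.338). The depth limits genes of few reads, and levels are given as CPM, counts scaled to the size of the library, which compare a gene between libraries and not 1 gene with another. On the first principal component of log2 CPM, which held 21.7% of the variance, the elemental MR libraries lay at -13.4 or below and the casein MR libraries at 12.4 or above. C_MR_3438 stood apart on the second component (12.02% of the variance) at -30.8. The labels give each library its own number but do not say how many mice or extractions stand behind the numbers, so the p-values measure only the spread among these libraries, which may be technical.

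C_MR_3438 held transcripts of skeletal muscle. The summed CPM of a list of 35 muscle genes was 3533 in C_MR_3438, 151 in C_MR_3425 and between 42.5 and 58.2 in the other 10 MR libraries. In the control groups it reached 104. Acta1, the actin of skeletal muscle, ran from 1.31 to 3.62 CPM (median 1.96) in elemental MR and had a median of 1.99 in casein MR, with 644 CPM in C_MR_3438 and 19.8 CPM or less in the other 11 MR libraries. Of 19 muscle genes with enough reads to test, 15 were called higher in casein MR with all libraries, against 2.72% of all genes. Without C_MR_3438 it was 1 of 19, against 2.03% of all genes. The 1 that remained was Tpm2, a tropomyosin of slow muscle fibres and other contractile cells. Tpm2 ran from 6.9 to 10.3 CPM (median 8.39) in elemental MR, and in casein MR from 11.6 to 22.2 CPM in the 5 libraries other than C_MR_3438, which had 213 CPM. Without that library its log2 fold change was 0.92 ± 0.21 (± standard error, as throughout for log2 fold changes, adjusted p = 0.00859). The values of Tnnc2 (troponin C), Ttn (titin), Ckm (creatine kinase) and Myh4 (a fast myosin) fell from 5.84, 5.49, 4.8 and 2.95 to 1.34, 1.29, 1.23 and 0.04 on the log2 scale when C_MR_3438 was left out, and none of the 4 passed the test then. The comparison of casein MR with elemental MR was therefore fitted with and without it. Statements below on overlap of groups, promoter counts and differences from the control diets used all libraries.

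**Figure D1:**
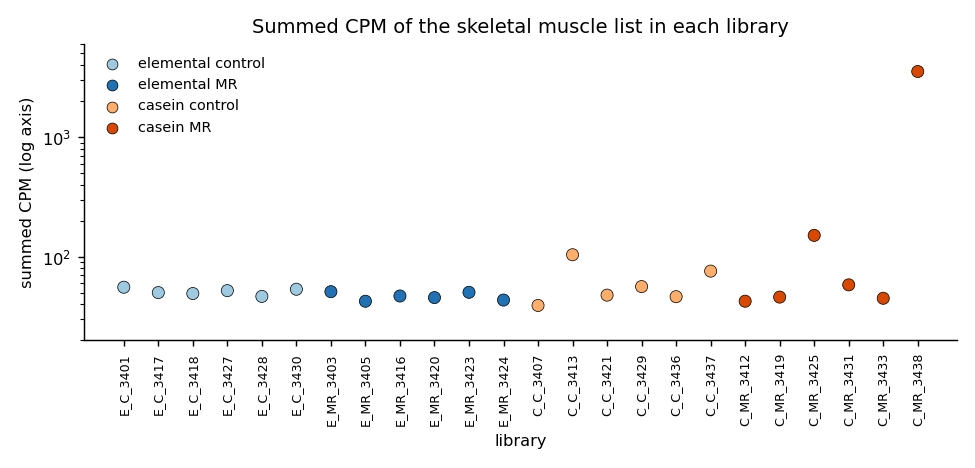
Summed CPM of the skeletal muscle list (y axis, logarithmic) in each of the 24 libraries (x axis), coloured by group. C_MR_3438 stands at 3533 and C_MR_3425 at 151, while the other 10 MR libraries lie between 42.5 and 58.2.

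With all libraries, 873 of 13441 genes tested differed between casein MR and elemental MR at an adjusted p under 0.05, which is 6.5% of the genes. Of these, 365 (2.72%) were higher and 508 (3.78%) were lower in casein MR. The change reached at least 2-fold for 174 genes (1.29%), of which 111 were higher and 63 lower. Without C_MR_3438, 696 of 13544 genes (5.14%) were called, 275 higher (2.03%) and 421 lower (3.11%), and 135 genes (0.997%) were called at 2-fold or more, 77 higher and 58 lower. Both fits called 657 genes, which is 75.3% of the calls with all libraries and 94.4% of the calls without C_MR_3438. The loss at 2-fold was mostly on the high side: 40 of the 111 higher genes and 9 of the 63 lower ones did not stay called at 2-fold. Of the 40, 38 were no longer called at all, 15 were on the muscle list, and 29 had their highest value among the 12 MR libraries in C_MR_3438. The 873 genes had a median absolute log2 fold change of 0.46, against 0.13 over all genes tested, so most calls were changes of well under 2-fold. The 6 values of casein MR did not overlap the 6 of elemental MR for 571 of the tested genes (4.25%), and 459 of these were called.

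**Figure D2:**
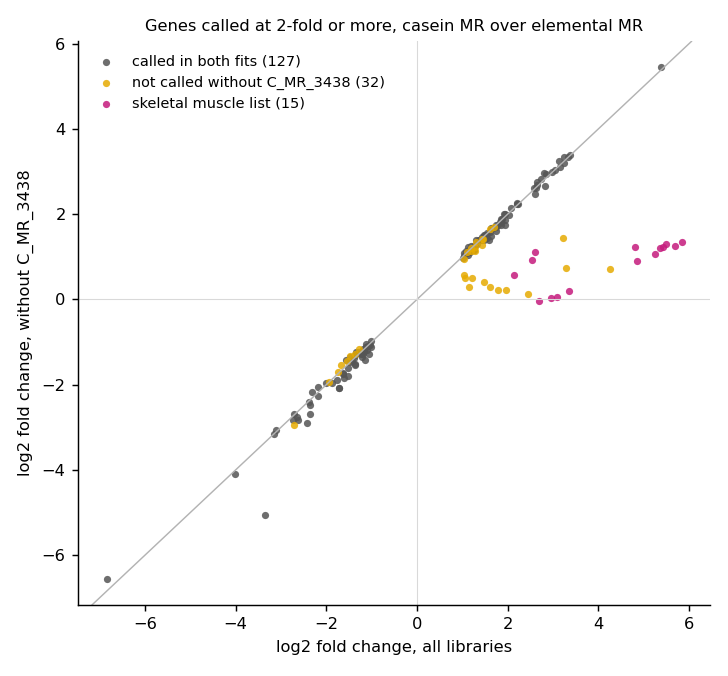
Log2 fold changes, casein MR over elemental MR, of the 174 genes called at 2-fold or more, with all libraries (x axis) and without C_MR_3438 (y axis); the grey line marks equal values. Muscle genes lie far below the line, as Tnnc2 at 5.84 on the x axis and 1.34 on the y axis, while 127 genes called in both fits lie along it; another 32 genes not called without C_MR_3438 are marked, and Tpm2, a muscle gene called in both, is drawn with the muscle list.

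Among genes with a mean log2 CPM of 1 or more that were called with and without C_MR_3438, the largest rise in casein MR was that of Mogat1 (ENSMUSG00000012187), which makes diacylglycerol from monoacylglycerol. It ran from 0.30 to 0.733 CPM (median 0.467) in elemental MR and from 1.94 to 8.18 CPM (median 5.35) in casein MR, and the log2 fold change was 3.37 ± 0.41 (adjusted p = 3.18e-06). The groups did not overlap, and every casein MR library was above every elemental MR library. Krt23 (ENSMUSG00000006777), a keratin, ran from 2.99 to 5.97 CPM (median 4.51) in elemental MR and from 29.2 to 45.2 CPM (median 34.01) in casein MR (2.98 ± 0.26, adjusted p = 2.17e-08). Peg3 (ENSMUSG00000002265), an imprinted zinc finger gene, ran from 3.67 to 7.7 CPM (median 5.16) and from 18.2 to 26.2 CPM (median 22.5) in the same order (2.08 ± 0.17, adjusted p = 9.51e-09). For both genes the lowest casein MR library was above the highest elemental MR library. Sema5b, a semaphorin (3.05 ± 0.27), Slc35f2, a solute carrier of the nucleotide sugar transporter family (3.15 ± 0.44), and the orphan adhesion receptor Adgrg2 (2.64 ± 0.22) did not overlap either. The same held for Rcan2, an inhibitor of calcineurin (1.95 ± 0.21), and for the serine protease Htra3 (1.79 ± 0.26). The 15 largest rises also held Tpm2, Cyp4a12b, Mup17, Cbr3, Lpl, Ehhadh and Slc27a1, and all 15 passed the test without C_MR_3438 by the rule that chose them.

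Among the same genes the largest fall was that of Vil1 (ENSMUSG00000026175), villin, an actin-bundling protein of microvilli. Vil1 ran from 5.46 to 10.1 CPM (median 8.22) in elemental MR and from 0 to 0.258 CPM (median 0.0236) in casein MR, where 3 of 6 libraries had 0 reads and the 6 together had 7. Its log2 fold change was -6.83 ± 0.48 (adjusted p = 7.48e-10), a size that rests on these few reads and was -8.1 without C_MR_3431. Vil1 was also lower with casein on the control diets, where it had 18 reads in the 6 casein libraries and 239 in the 6 elemental ones. Ptgds (ENSMUSG00000015090), a prostaglandin D synthase, ran from 4.92 to 8.73 CPM (median 6.79) in elemental MR and from 0.183 to 0.93 CPM (median 0.309) in casein MR (-4.01 ± 0.43, adjusted p = 6.93e-07). Ncam2, a cell adhesion molecule, ran from 1.75 to 3.68 CPM (median 2.05) and from 0.115 to 0.413 CPM (median 0.265) (-3.12 ± 0.30, adjusted p = 8.74e-08). In neither gene did the groups overlap. The organic anion transporter Slc22a7 (-2.38 ± 0.29), its family member Slc22a28 (-1.88 ± 0.34), the acetyltransferase Nat8 (-2.36 ± 0.19), Mmd2 (-2.74 ± 0.33), the centromere protein gene Cenpm (-2.17 ± 0.28) and the class I histocompatibility gene H2-Q1 (-1.76 ± 0.43) were lower with no overlap. Clec2h, a C-type lectin (-1.61 ± 0.43), Dct, dopachrome tautomerase (-2.44 ± 0.67), and Hsd3b5, a steroid dehydrogenase of male liver (-3.16 ± 0.67), were called lower with groups that overlapped. E_MR_3420 had 76.5 CPM of Hsd3b5, and without it the log2 fold change was -1.94; limma-voom did not call the gene (adjusted p = 0.0819). H2-Q1 was not called without E_MR_3423 (adjusted p = 0.0501), Clec2h was not called when any 1 of 2 libraries was left out (adjusted p up to 0.0541, without E_MR_3416), and Dct was not called when any 1 of 5 libraries was left out (adjusted p up to 0.0708, without E_MR_3405). Slc22a28 and H2-Q1 belong to families with near-identical copies, so reads may have been split between copies.

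Many genes of fatty acid uptake and oxidation were higher in casein MR. Of 46 tested PPARalpha targets and fatty acid oxidation genes, 27 were called higher and 0 lower, against 2.72% of all genes called higher. The median log2 fold change of the list was 0.33, against -0.00042 over all genes tested, and without C_MR_3438 the counts were 24 and 0. Among the other 23 libraries, C_MR_3425 had the highest value of 32 members, and its summed CPM of the list was 41205, against 38200 in the next casein MR library and 20670 to 25490 in elemental MR. Without both C_MR_3438 and C_MR_3425, chosen after seeing the data, 20 were called higher and 0 lower. Acot2 (ENSMUSG00000021226), which frees fatty acids from coenzyme A in mitochondria, ran from 52.1 to 122 CPM (median 66.5) in elemental MR and from 150.3 to 252 CPM (median 217) in casein MR (1.5 ± 0.19, adjusted p = 6.01e-06). The groups did not overlap, and the 1 elemental MR library at 122 CPM of Acot2 was E_MR_3405. Pex11a, a protein of peroxisome division (0.98 ± 0.16), and Hsd17b4, an enzyme of peroxisomal oxidation (0.49 ± 0.08), were higher without overlap too. Ehhadh, the bifunctional enzyme of the classical peroxisomal route, ran from 14.9 to 63.7 CPM (median 23.9) and from 45.8 to 206 CPM (median 105), a difference of 1.93 ± 0.35 with 1 elemental MR library inside the casein MR range.

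The fatty acid hydroxylases Cyp4a10 (ENSMUSG00000066072) and Cyp4a14 (ENSMUSG00000028715) were among the PPARalpha targets that were higher. Cyp4a10 ran from 814 to 1342 CPM (median 898) in elemental MR and from 1974 to 3593 CPM (median 2349) in casein MR (1.32 ± 0.29, adjusted p = 0.00432). Cyp4a14 ran from 2695 to 3892 CPM (median 3007) and from 5813 to 9377 CPM (median 7268) (1.22 ± 0.33, adjusted p = 0.0249). Neither pair of groups overlapped, and members of this family have close copies, so single values are uncertain. Cyp4a14 was not called when any 1 of 5 libraries was left out (adjusted p up to 0.0548, without C_MR_3425). Lpl (ENSMUSG00000015568), lipoprotein lipase, which frees fatty acids from lipoproteins and which muscle also expresses, ran from 26.6 to 68.6 CPM (median 38.4) and from 95.8 to 264 CPM (median 153), with its highest value in C_MR_3438. The log2 fold change of Lpl was 1.93 ± 0.21 with all libraries and 1.74 ± 0.19 without C_MR_3438 (adjusted p = 1.17e-06). Slc27a1, a fatty acid transporter that muscle also expresses, differed by 1.85 ± 0.31 and by 1.81 ± 0.33 without that library. Cpt1a, the enzyme of mitochondrial fatty acid entry, did not pass the test and had a log2 fold change of -0.01 ± 0.11 (95% interval -0.24 to 0.22, for the gene alone and not adjusted over genes), whose sign changed with the scaling.

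A motif of 2 receptor hexamers with 1 base between them, AGGNCANAGGNCA with N as any base, was searched on both strands in RefSeq promoters (GRCm38.p6, 250 bases before to 50 after each gene start). It was in 0.381% of 32851 promoters, in 1 of the 18 members called higher that had a promoter in the table, and in 0 of 16 members that were tested and not called. The 1 promoter was that of Fabp1, the liver fatty acid binding protein, itself called higher (0.45 ± 0.11). It is shown to let the letters be seen, up to the first annotated exon base, with the match in capitals, at chr6:71199767-71199826 on the plus strand:
Fabp1: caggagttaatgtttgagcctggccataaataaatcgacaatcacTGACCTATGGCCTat

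Many transcripts of proteins that hepatocytes secrete were lower in casein MR. Of 40 tested complement and coagulation factors 29 were called lower and 1 higher, against 3.78% and 2.72% of all genes. The median of the list was -0.32, and 26 and 1 were called without C_MR_3438. C8g (ENSMUSG00000015083), a subunit of the membrane attack complex, ran from 325 to 389 CPM (median 351) in elemental MR and from 198 to 239 CPM (median 232) in casein MR (-0.65 ± 0.07, adjusted p = 8.09e-07). F10 (ENSMUSG00000031444), coagulation factor X, ran from 443 to 468 CPM (median 453) and from 304 to 355 CPM (median 331) (-0.46 ± 0.06, adjusted p = 5.22e-06). These were small shifts with narrow spread, and neither pair of groups overlapped. The complement inhibitor C4bp (-0.53 ± 0.06) and antithrombin, Serpinc1 (-0.36 ± 0.05), did not overlap either. C8b, another subunit of the attack complex and a gene of male-biased expression, differed by -0.91 ± 0.17 (adjusted p = 0.000746). The 1 member called higher was Pros1, the anticoagulant protein S (0.35 ± 0.09, adjusted p = 0.0203), and it was not called when any 1 of 3 libraries was left out (adjusted p up to 0.0694, without C_MR_3419).

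Of 12 hepatocyte markers, 8 were called lower and 0 higher, against 3.78% and 2.72% of all genes, with a median of -0.47. Alb (ENSMUSG00000029368), albumin, ran from 58356 to 64831 CPM (median 63105) in elemental MR and from 41815 to 47389.6 CPM (median 43296) in casein MR (-0.50 ± 0.06, adjusted p = 1.97e-06). Albumin took 6.43 ± 0.222% of counts in elemental MR and 4.90 ± 0.181% in casein MR (SD, 6 libraries each). The summed CPM of the 12 hepatocyte markers was 106288 to 119430 in elemental MR and 79210 to 89527 in casein MR, with no overlap. Albumin made a large part of this sum, so the albumin share and the sum are not separate results. For both measures the two-sided exact permutation p was 0.00216, the smallest that 6 against 6 can give, and the adjusted p over 13 measures was 0.00703. The 20 most abundant genes took 31.3 to 32.9% of counts in elemental MR and 29.0 to 30.5% in casein MR. Fewer hepatocytes and less of these RNAs per hepatocyte cannot be told apart in bulk tissue. The part of this sum in the lower genes of secretion, nitrogen disposal, methyl transfer and the periportal zone was not tested. Transferrin, Trf (-0.53 ± 0.06), fetuin A, Ahsg (-0.79 ± 0.10), and transthyretin, Ttr (-0.32 ± 0.06), were the other markers of the smallest p, and their groups did not overlap.

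Of 32 acute phase proteins, which the liver secretes in inflammation, 9 were called lower and 1 higher (7 and 1 without C_MR_3438). The shares over all genes were 3.78% and 2.72%, and the median of the list was -0.24. Orm1 (ENSMUSG00000039196), orosomucoid, ran from 99.9 to 240.2 CPM (median 163) in elemental MR and from 36.2 to 98.98 CPM (median 58.7) in casein MR (-1.37 ± 0.22, adjusted p = 0.000209), with no overlap. Hemopexin, Hpx (-0.52 ± 0.08), the fibrinogen chain Fga (-0.40 ± 0.07) and the inhibitor heavy chain Itih4 (-0.43 ± 0.09) were lower without overlap. The 1 member called higher was Il1rn, the interleukin 1 receptor antagonist (0.84 ± 0.21, adjusted p = 0.0148). Saa1, serum amyloid A, did not pass the test (-0.34 ± 0.30, 95% interval -0.95 to 0.27). Igf1 (ENSMUSG00000020053), the growth factor that the liver makes under growth hormone, ran from 878 to 1063 CPM (median 993) and from 651 to 766 CPM (median 737) (-0.45 ± 0.08, adjusted p = 0.000901). Its lowest casein MR value was that of C_MR_3438, and without it the difference was -0.42 ± 0.09.

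**Figure D3:**
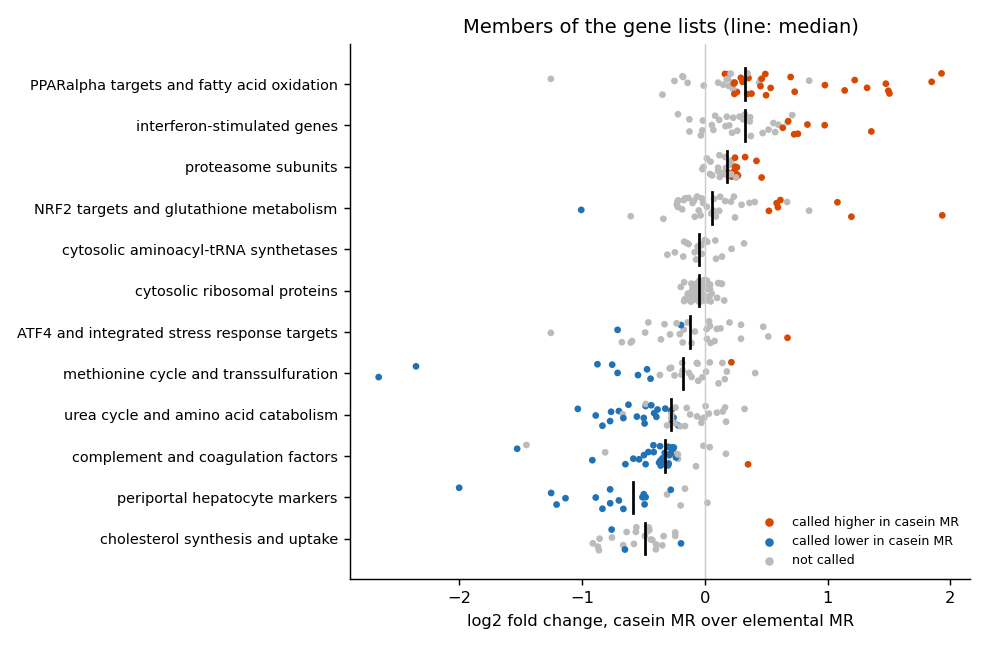
Log2 fold change, casein MR over elemental MR (x axis), of each tested member of 12 gene lists (rows); orange points were called higher, blue points lower, grey points were not called, and black lines are medians. The PPARalpha list lies to the right with a median of 0.33, and the periportal, complement, and urea cycle lists lie to the left with medians of -0.58, -0.32 and -0.27.

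Markers of periportal hepatocytes had the lowest median of the hepatic lists, -0.58. Of 20 such markers 16 were called lower and 0 higher, against 3.78% and 2.72% of all genes, and 15 and 0 without C_MR_3438. Cyp2f2 (ENSMUSG00000052974), a cytochrome P450 of periportal cells, ran from 956 to 1291 CPM (median 1086) in elemental MR and from 341 to 576 CPM (median 489) in casein MR (-1.21 ± 0.13, adjusted p = 5.63e-07). Cdh1 (ENSMUSG00000000303), E-cadherin, ran from 64.2 to 82.5 CPM (median 72.5) and from 37.8 to 47.5 CPM (median 42.8) (-0.77 ± 0.09, adjusted p = 1.67e-06). The aldehyde dehydrogenase Aldh1b1 differed by -1.13 ± 0.17, and as for the other 2 its groups did not overlap. Albumin is on this list as well, and so is Apoa4, an apolipoprotein, which ran from 95.1 to 207 CPM (median 148) and from 22.5 to 53.2 CPM (median 34.9) (-2.0 ± 0.43, adjusted p = 0.0035). Of 22 pericentral markers 5 were called lower and 0 higher, against 3.78% and 2.72% of all genes, with a median of -0.05. The 5 were Oat, on the next list too, Lect2 (-0.66 ± 0.08), Gulo, a gulonolactone oxidase (-0.58 ± 0.10), Cyp2c50 (-0.49 ± 0.13) and the ammonium transporter Rhbg (-0.74 ± 0.22). Cyp2c50 was not called when any 1 of 2 libraries was left out (adjusted p up to 0.0623, without E_MR_3416), and Rhbg was not called when any 1 of 8 libraries was left out (adjusted p up to 0.0914, without E_MR_3423). The 5 became 3 without E_MR_3416 or C_MR_3431. The 2 lists were not tested against each other.

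Many genes of nitrogen disposal were called lower. Of 43 tested genes for the urea cycle and for amino acid catabolism, 21 were called lower and 0 higher, against 3.78% and 2.72% of all genes. The median was -0.27, and 17 and 0 were called without C_MR_3438. Many of the periportal markers above, Ass1 among them, are also on this list, so the counts of the periportal list and of this one are not separate results. Ass1 (ENSMUSG00000076441), the argininosuccinate synthase of the urea cycle, ran from 474 to 626 CPM (median 570.00) in elemental MR and from 218 to 380.4 CPM (median 311) in casein MR (-0.89 ± 0.14, adjusted p = 0.000178). Oat (ENSMUSG00000030934), ornithine aminotransferase, ran from 245 to 406 CPM (median 356) and from 138 to 194 CPM (median 168) (-1.03 ± 0.15, adjusted p = 6.57e-05). The groups did not overlap for either gene. Sdsl, a serine dehydratase-like enzyme, differed by -0.76 ± 0.14 without overlap, and Kynu, kynureninase of tryptophan breakdown, by -0.62 ± 0.10 with overlap.

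In the methionine cycle and its methyl branches, Bhmt, Dmgdh and Gnmt were among the genes called lower in casein MR. Of 29 tested genes, 8 were called lower and 1 higher, against 3.78% and 2.72% of all genes. The median was -0.18, and 8 and 0 were called without C_MR_3438. Bhmt (ENSMUSG00000074768), which remethylates homocysteine with betaine, ran from 405 to 869.6 CPM (median 536) in elemental MR and from 62.8 to 128 CPM (median 94.8) in casein MR. Every casein MR library was below every elemental MR library, by a log2 fold change of -2.65 ± 0.20 (adjusted p = 1.57e-09). Dmgdh (ENSMUSG00000042102), which takes the next methyl group from the product of Bhmt, ran from 205 to 279 CPM (median 231) and from 126 to 135 CPM (median 128) (-0.87 ± 0.08, adjusted p = 2.60e-08). Bhmt2, the homolog that uses S-methylmethionine, differed by -0.44 ± 0.09 with overlapping groups. Chdh, which makes betaine from choline, was the 1 gene called higher (0.22 ± 0.06, adjusted p = 0.036), and it was not called when any 1 of 8 libraries was left out (adjusted p up to 0.0929, without E_MR_3403), C_MR_3438 among them (adjusted p = 0.0765).

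The genes called lower on this list held 4 methyltransferases that spend S-adenosylmethionine, Nnmt, Gnmt, Gamt and Pemt. Nnmt (ENSMUSG00000032271), which methylates nicotinamide, ran from 13.6 to 31.96 CPM (median 20.3) in elemental MR and from 2.42 to 8.05 CPM (median 3.36) in casein MR (-2.35 ± 0.32, adjusted p = 2.30e-05). Gnmt (ENSMUSG00000002769), the glycine methyltransferase of liver, ran from 1467 to 1970.5 CPM (median 1761) and from 801 to 1199 CPM (median 1061) (-0.75 ± 0.11, adjusted p = 3.75e-05). The highest casein MR value of Nnmt was in C_MR_3438, and in neither gene did the groups overlap. Gamt, of creatine synthesis (-0.54 ± 0.08), and Pemt, of phosphatidylcholine synthesis (-0.47 ± 0.06), were lower without overlap. Of the transsulfuration enzymes, Cth ran from 184 to 468 CPM (median 300.1) and from 168 to 233 CPM (median 179.5) (-0.71 ± 0.20, adjusted p = 0.0317), and its adjusted p was 0.068 without C_MR_3438. It was not called when any 1 of 7 libraries was left out (adjusted p up to 0.11, without E_MR_3416). Cbs, the first enzyme of that route (-0.18 ± 0.10, 95% interval -0.39 to 0.03), and Mat1a, which makes S-adenosylmethionine (-0.25 ± 0.11, 95% interval -0.48 to -0.01), did not pass the test.

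Msra and Msrb1, enzymes that reduce methionine sulfoxide, did not pass the test. Msra (ENSMUSG00000054733), the reductase of the S form of the sulfoxide, ran from 112 to 131 CPM (median 121) in elemental MR and from 106 to 127 CPM (median 121) in casein MR, and its log2 fold change was -0.02 ± 0.06 (95% interval -0.15 to 0.10). Msrb1 (ENSMUSG00000075705), a reductase of the R form, ran from 329.7 to 409 CPM (median 361) and from 335 to 401 CPM (median 348), with -0.03 ± 0.07 (95% interval -0.18 to 0.12). Both intervals leave out a change of 1.5-fold, and the groups overlapped. Of the 9 reductase and thioredoxin genes tested, 1 was called higher and 0 lower, against 2.72% and 3.78% of all genes. It was Txn1, the cytosolic thioredoxin, which ran from 319.8 to 408 CPM (median 342) and from 374 to 461 CPM (median 438) (0.29 ± 0.07, adjusted p = 0.0159). Thioredoxin reductase Txnrd1 had -0.08 ± 0.07 (95% interval -0.23 to 0.07), the mitochondrial Txnrd2 0.13 ± 0.06 (adjusted p = 0.229) and Txn2 -0.13 ± 0.05 (adjusted p = 0.129).

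Of 42 NRF2 targets and glutathione genes, 7 were called higher and 1 lower, against 2.72% and 3.78% of all genes. The median was 0.06, and the same counts of 7 and 1 held without C_MR_3438. The 1 lower became 2 without C_MR_3412 and 3 without C_MR_3425. Cbr1 (ENSMUSG00000051483), a carbonyl reductase, ran from 184 to 390.2 CPM (median 279.7) in elemental MR and from 497 to 787 CPM (median 663) in casein MR (1.19 ± 0.13, adjusted p = 8.19e-07). Cbr3, its neighbour in sequence, ran from 0.60 to 4.17 CPM (median 1.31) and from 3.23 to 9.07 CPM (median 6.56) (1.93 ± 0.32, adjusted p = 0.000228), with E_MR_3405 as the highest elemental MR library. The groups did not overlap for Cbr1 and did for Cbr3. The glutathione transferases of the mu class went apart, Gstm4 higher (0.62 ± 0.10, adjusted p = 0.00032) and Gstm2 lower (-1.0 ± 0.13, adjusted p = 1.52e-05), and these genes are close copies. The exporter Abcc3, which is also a bile acid transporter, was higher without overlap (0.60 ± 0.10, adjusted p = 0.000358). Nqo1, a quinone reductase often used as an NRF2 reporter, did not pass the test (0.67 ± 0.21, adjusted p = 0.0601), nor did Gclc, of glutathione synthesis (-0.13 ± 0.11, 95% interval -0.36 to 0.09).

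Of 26 genes of bile acid synthesis and transport, 6 were called lower and 1, Abcc3, higher (5 and 1 without C_MR_3438). The shares over all genes were 3.78% lower and 2.72% higher. Abcb11 (ENSMUSG00000027048), the pump that moves bile acids into bile, ran from 373 to 498 CPM (median 452) in elemental MR and from 245 to 324 CPM (median 300.03) in casein MR (-0.61 ± 0.08, adjusted p = 1.52e-05). Cyp2c70, which makes the muricholic acids of mice (-1.11 ± 0.19), and Slc51b, a subunit of the basolateral exporter (-2.18 ± 0.34), were lower, and none of the 3 had overlapping groups. Cyp7a1, the rate-limiting enzyme of bile acid synthesis, ran from 51.02 to 129 CPM (median 80.5) and from 32.4 to 106 CPM (median 61.98), a wide spread within both groups (-0.44 ± 0.39, 95% interval -1.24 to 0.36).

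All 25 genes of cholesterol synthesis and uptake had a log2 fold change below 0, with a median of -0.49. Yet 3 were called lower with all libraries and 3 without C_MR_3438, against 3.78% and 3.11% of all genes. The 3 were Tm7sf2 (-0.65 ± 0.17, adjusted p = 0.0218), Cyp51 (-0.76 ± 0.22, adjusted p = 0.0336) and Ebp (-0.19 ± 0.06), enzymes of the later steps. Leaving out 1 library moved this count between 0 (without E_MR_3403, E_MR_3416 or C_MR_3419) and 5 (without E_MR_3420), and it was 1 without E_MR_3405 or C_MR_3431. Tm7sf2 was not called when any 1 of 3 libraries was left out (adjusted p up to 0.059, without C_MR_3419), Cyp51 was not called when any 1 of 5 libraries was left out (adjusted p up to 0.1, without E_MR_3405), and Ebp was not called when any 1 of 10 libraries was left out (adjusted p up to 0.128, without C_MR_3419). Msmo1, of the same steps, did not pass the test (-0.86 ± 0.27, adjusted p = 0.0552). The genes of fatty acid synthesis had wide spreads within both groups. Scd1, which desaturates stearate, ran from 609 to 1598 CPM (median 1056) in elemental MR and from 633 to 1272 CPM (median 1069.5) in casein MR (-0.02 ± 0.30, 95% interval -0.63 to 0.60). Fasn, fatty acid synthase (-0.45 ± 0.29, 95% interval -1.04 to 0.14), and Srebf1, its regulator (0.06 ± 0.17, 95% interval -0.28 to 0.41), did not pass the test either.

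Genes that differ between male and female liver under growth hormone moved both ways. Over all genes 2.72% were called higher and 3.78% lower. Of 30 male-biased genes 4 were called higher and 5 lower, and of 22 female-biased genes 3 were called higher and 2 lower (3 and 1 without C_MR_3438). The 3 became 5 without E_MR_3405, and the 2 became 1 without any of E_MR_3403, E_MR_3416, E_MR_3423, C_MR_3412 or C_MR_3425 and 3 without C_MR_3431 or C_MR_3433. Cyp4a12b (ENSMUSG00000078597), a hydroxylase of male liver, ran from 2.82 to 9.25 CPM (median 3.85) in elemental MR and from 3.36 to 66.3 CPM (median 33.2) in casein MR (2.82 ± 0.46, adjusted p = 0.000231). Mup17, a major urinary protein gene, ran from 5.6 to 25.2 CPM (median 12.3) and from 21.4 to 224 CPM (median 52.6) (2.59 ± 0.53, adjusted p = 0.00207). Without C_MR_3412 the value of Mup17 was 1.95. Both genes had higher medians on the control diets than on either MR diet. These were 67.4 CPM (elemental) and 107 CPM (casein) for Cyp4a12b, and 109 and 309 CPM for Mup17. On the control diets, casein over elemental was 1.74 ± 0.49 for Mup17 (adjusted p = 0.165). The change of this contrast between MR and control diets was 0.85 ± 0.70 and was not called (adjusted p = 0.701). Casein MR libraries spread widely in both genes, the groups overlapped, and both genes have near-identical copies. Cyp4a12a (1.75 ± 0.42) and Cyp2d9 (0.94 ± 0.21) were the other male-biased genes called higher. Serpina12, the adipokine vaspin, was lower (-1.36 ± 0.28, adjusted p = 0.00242), as were C8b, C8a of the attack complex (-0.58 ± 0.15), Hsd3b5 and the glucuronosyltransferase Ugt2b1 (-0.48 ± 0.12). Among female-biased genes, Hao2, a hydroxy acid oxidase, had 31 reads in the 6 elemental MR libraries and 344 in the 6 casein MR libraries (3.25 ± 0.57, adjusted p = 0.00045). Tox, a nuclear factor of T cell development (0.73 ± 0.17), and Cyp2b13 (2.8 ± 0.57) were higher. Hao2 was at 4.03 without E_MR_3403, and Cyp2b13 at 2.14 without C_MR_3431. Gm4956 was lower (-1.73 ± 0.42, adjusted p = 0.00923). Ntrk2, a neurotrophin receptor, was lower too (-2.71 ± 0.81, adjusted p = 0.0412), but it was not called when any 1 of 10 libraries was left out (adjusted p up to 0.0871, without E_MR_3424).

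Some interferon-stimulated genes and proteasome subunits were higher in casein MR. Of 37 interferon-stimulated genes 7 were called higher and 0 lower, against 2.72% and 3.78% of all genes. The median was 0.33, and 6 and 0 were called without C_MR_3438. C_MR_3438 had the highest value of all 24 libraries for 12 members, and its summed CPM of the list was 1601, against 1278 in the next casein MR library. Igtp (ENSMUSG00000078853), an immunity GTPase, ran from 42.1 to 66.8 CPM (median 44.6) in elemental MR and from 56.5 to 143 CPM (median 92.4) in casein MR (0.98 ± 0.22, adjusted p = 0.00535). Gbp3 (ENSMUSG00000028268), a guanylate-binding protein, ran from 4.79 to 6.94 CPM (median 5.77) and from 7.996 to 14.7 CPM (median 9.65) (0.84 ± 0.19, adjusted p = 0.00468). The groups overlapped for Igtp and not for Gbp3. Gbp7 (0.64 ± 0.14, adjusted p = 0.00523) and Ifi47, another immunity GTPase (0.73 ± 0.17, adjusted p = 0.0072), were called with overlapping groups. On the control diets the list had a median of 0.29 in the same direction, with 0 genes called, against 0.104% of all genes. The casein minus elemental difference on MR less that on control diets had a list median of 0.01. It was called for 0 of the 37 genes, against 2.34% of all genes. The summed CPM of 20 Kupffer cell and macrophage markers was 639 to 985 in elemental MR and 856 to 1310 in casein MR (exact permutation p = 0.288), with 19 of the 20 log2 fold changes above 0, and that of the lymphocyte and neutrophil markers was 23.2 to 30.5 and 24.8 to 46.7 (exact permutation p = 0.0346, adjusted p = 0.09). The part of these cells in the interferon-stimulated genes was not tested.

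The promoters of the called interferon-stimulated genes are shown because a known response element can be read in them. A pair of GAAA blocks with 2 bases between them, GAAANNGAAA on either strand, was in 3.44% of all 32851 RefSeq promoters. It was in 4 of the 6 called members that had a promoter in the table, and in 13 of 21 members that were tested and not called. The windows below (GRCm38.p6, read 5′ to 3′ on the gene's strand, up to the gene start or the first annotated exon base) show every match in capitals; Gbp3 and Oas1a hold 2 matches each, which overlap. They lie at chr3:142559954-142560025 (plus strand) for Gbp3, chr3:142530238-142530335 (plus) for Gbp7, chr11:58199477-58199555 (plus) for Igtp and chr5:120907526-120907590 (minus) for Oas1a, an antiviral synthetase (1.36 ± 0.32).
Gbp3: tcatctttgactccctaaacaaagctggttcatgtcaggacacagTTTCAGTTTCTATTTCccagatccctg
Gbp7: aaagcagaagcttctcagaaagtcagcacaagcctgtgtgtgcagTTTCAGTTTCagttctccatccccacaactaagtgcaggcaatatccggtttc
Igtp: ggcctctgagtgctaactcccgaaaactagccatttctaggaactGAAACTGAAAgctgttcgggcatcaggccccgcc
Oas1a: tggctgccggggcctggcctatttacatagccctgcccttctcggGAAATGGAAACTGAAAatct

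Of 31 proteasome subunits 11 were called higher and 0 lower, against 2.72% and 3.78% of all genes. The median was 0.18, and 7 and 0 were called without C_MR_3438. The 11 became 6 without E_MR_3403 and 7 without any of E_MR_3420, E_MR_3423, E_MR_3424 or C_MR_3425, and 15 without C_MR_3431. Without both C_MR_3438 and C_MR_3425, chosen after seeing the data, it was 4. Of the 31 members, 8 were highest of all 24 libraries in C_MR_3438, and 15 were highest of the other 23 in C_MR_3425. Psma7 (ENSMUSG00000027566), of the core particle, ran from 249 to 285 CPM (median 268) in elemental MR and from 285 to 363 CPM (median 342) in casein MR (0.33 ± 0.06, adjusted p = 0.000299). Psmd14 (0.46 ± 0.08), the deubiquitinase of the lid, Psma2 (0.26 ± 0.05) and Psmb4 (0.26 ± 0.06) were higher too. C_MR_3431 had the lowest casein MR value of Psma2 and of Psmb4. These differences were small, each under 1.5-fold.

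ATF4 drives the genes of the response to amino acid shortage. Of 32 tested targets, 1 was called higher and 2 lower, against 2.72% and 3.78% of all genes. The 2 became 0 without any of E_MR_3403, E_MR_3405 or C_MR_3412, and the 1 became 2 without E_MR_3416. The median log2 fold change of the list was -0.12, with 14 members above 0 and 18 below. The summed CPM of the list did not overlap, at 1943 to 2372 in elemental MR and 1598 to 1939 in casein MR. Abundant members weigh most in this sum, such as Atf5 at 518 to 824 CPM in elemental MR and 468 to 654 in casein MR. Of 20 cytosolic aminoacyl-tRNA synthetases 0 were called by edgeR, and 1 was called lower without C_MR_3433. Asns (ENSMUSG00000029752), asparagine synthetase, the standard reporter of this response, ran from 57.98 to 80.4 CPM (median 72.6) in elemental MR and from 50.01 to 72.3 CPM (median 63.7) in casein MR. Its log2 fold change was -0.18 ± 0.18 (95% interval -0.54 to 0.18), and the groups overlapped. Psat1 (0.30 ± 0.19, 95% interval -0.10 to 0.69) and Phgdh (-0.20 ± 0.34, 95% interval -0.90 to 0.50), of serine synthesis, did not pass the test. The hormones Fgf21 and Gdf15 varied widely within the groups: Fgf21 ran from 1.43 to 36.02 CPM (median 11.1) and from 1.81 to 14.4 CPM (median 5.66) (-1.25 ± 0.60, 95% interval -2.48 to -0.03), and Gdf15 had 0.02 ± 0.30 (95% interval -0.59 to 0.63). Vldlr, a lipoprotein receptor, was the target called higher (0.67 ± 0.15, adjusted p = 0.00414), and its groups did not overlap. Shmt2, of mitochondrial folate metabolism (-0.19 ± 0.05, adjusted p = 0.0305), and Cth were the 2 called lower. Shmt2 was not called when any 1 of 6 libraries was left out (adjusted p up to 0.076, without C_MR_3433), while Atf5, a transcription factor of the response, did not pass (-0.33 ± 0.11, adjusted p = 0.0849). Pck1, the gluconeogenic enzyme that fasting raises, had 0.02 ± 0.28 (95% interval -0.56 to 0.60).

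The marker lists of cell types other than hepatocytes and muscle held at most 1 called gene each. Over all genes 2.72% were called higher and 3.78% lower. Of 20 Kupffer cell markers and of 11 lymphocyte and neutrophil markers 0 were called, though without C_MR_3438 all 20 Kupffer cell markers had a log2 fold change above 0. Of 7 cholangiocyte markers 1 was called lower, of 20 endothelial markers 1 was called higher, and of 20 stellate cell markers 1 was called higher with all libraries and 0 without C_MR_3438. The endothelial gene was Lyve1, a hyaluronan receptor of lymphatic and sinusoidal cells (0.88 ± 0.20, adjusted p = 0.00468), whose groups did not overlap. The stellate cell gene was Des, desmin, which muscle also expresses (2.15 ± 0.56). Des had 46.2 CPM in C_MR_3438, and without that library its log2 fold change was 0.56 ± 0.26 (adjusted p = 0.246). The summed CPM of the 9 adipocyte genes in the table was lower in casein MR without overlap, 2071 to 3585 against 4307 to 6294 (exact permutation p = 0.00216, adjusted p = 0.00703). Car3, a carbonic anhydrase that liver expresses too, made almost all of this sum, running from 4276 to 6261 CPM (median 5204) in elemental MR and from 2037 to 3528 CPM (median 2759) in casein MR. It was the 1 adipocyte gene of 6 tested that was called (-0.90 ± 0.15, adjusted p = 0.000353). Erythroid sums ran from 1360 to 7322 CPM in elemental MR and from 1322 to 7374 in casein MR, a wide spread within both groups.

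On the control diets, the same contrast of protein sources called 14 of 13441 genes (0.104%), 4 higher and 10 lower with casein. The count was 33 without C_C_3407, between 5 and 9 without any of 3 elemental (E_C_3417, E_C_3418, E_C_3428) and 4 other casein control libraries (C_C_3413, C_C_3421, C_C_3429, C_C_3436), and 73 with DESeq2. The difference between the 2 contrasts, casein minus elemental on MR less casein minus elemental on control, was called for 315 genes (2.34%). Of the 873 genes called on MR diets, 271 (31.0%) were among these, and 2 were called on the control diets. The MR calls had a median absolute log2 fold change of 0.11 on the control diets, where all genes tested had 0.11. The sign of an MR call was the same on the control diets for 59.5% of the 873 genes and for 56.5% of all genes tested. No library enters both the MR and the control contrast, but the difference between them uses the libraries of both. The 31.0% therefore follows in part from choosing genes by the MR contrast. The 2 genes called on both were Vil1, at -6.83 ± 0.48 on MR and -3.58 ± 0.46 on control diets, and Rcan2, at 1.95 ± 0.21 and 1.32 ± 0.23. Asns showed the reverse pattern. It was called on the control diets (-1.96 ± 0.26, adjusted p = 0.000278) and not on the MR diets, and the difference between the 2 contrasts was called (1.78 ± 0.31, adjusted p = 0.00155).

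**Figure D4:**
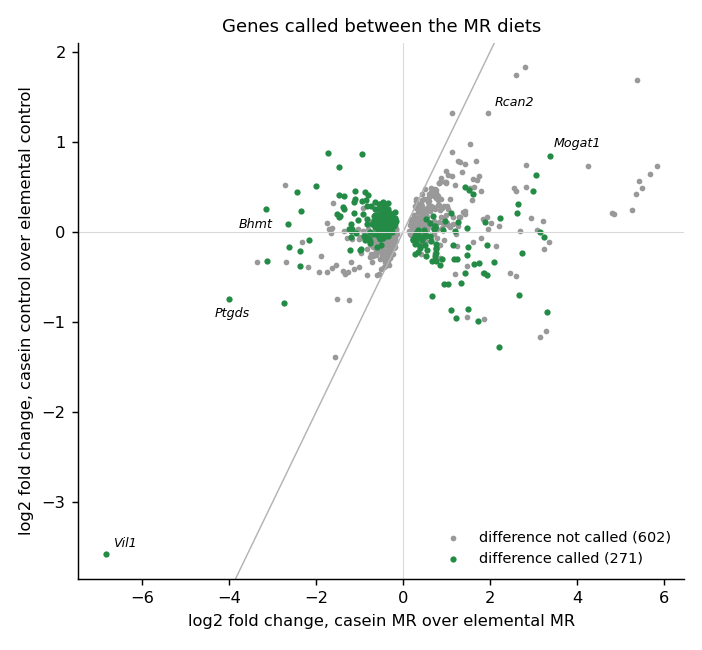
Log2 fold changes of casein over elemental for the 873 genes called on MR diets, on MR diets (x axis) and on control diets (y axis); green marks the 271 genes whose difference between the diets was called, and the grey line marks equal values. Most points lie near 0 on the y axis, while Vil1, Rcan2 and Mup17 (not labelled, 1.74 on the y axis) are among those that lie away from it.

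**Figure D5:**
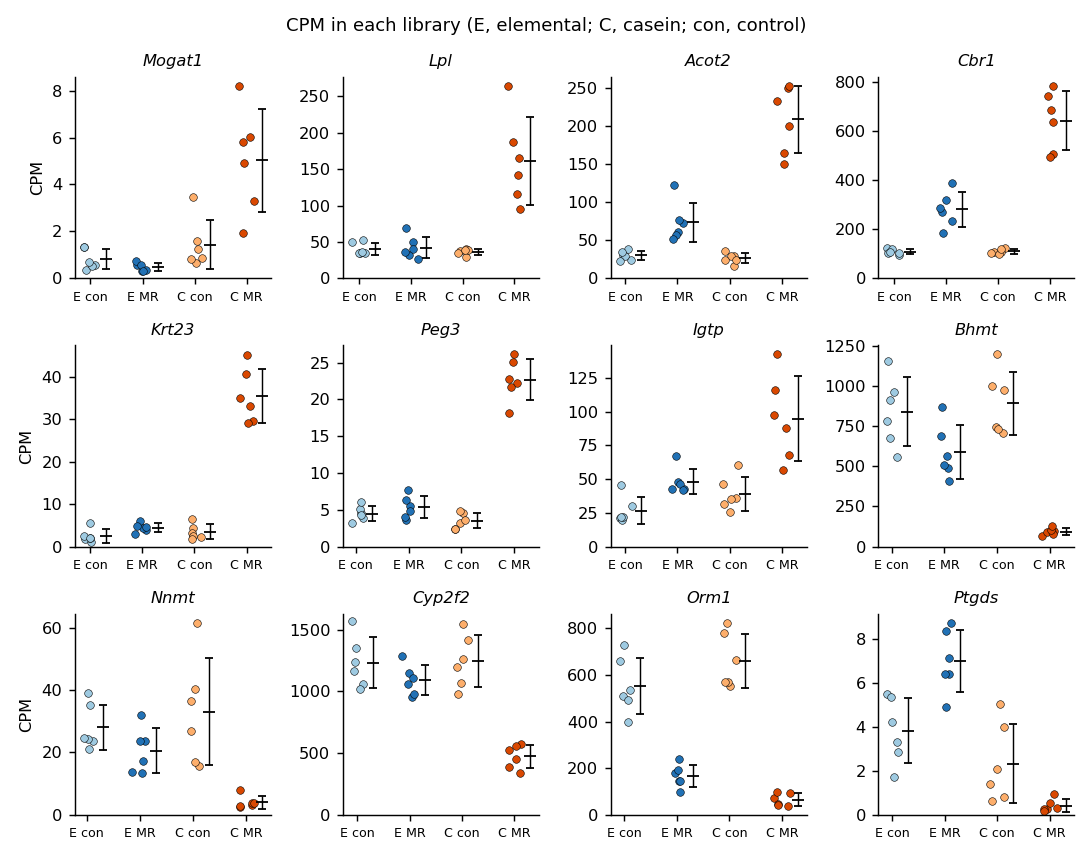
CPM (y axis, from 0) of 12 genes in each library, by group (x axis), with the mean and SD of the group beside the points. Mogat1, Lpl, Acot2, Cbr1, Krt23, Peg3 and Igtp are high in casein MR, Bhmt, Nnmt, Cyp2f2 and Orm1 are low there, and Ptgds is high in elemental MR and low in casein MR.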

How the data were processed

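Mouse liver RNA was sequenced in 24 libraries, 6 in each of 4 groups taken from the labels. The deposited counts are raw reads per gene, 15161 genes with a total of at least 72 reads each. The other deposited table holds the same reads as a normalized signal, each count divided by a size factor of 0.745 to 1.32 per library, and gave only gene symbols here (13002, with 2119 more from the reference annotation and 40 genes unnamed). The sources used here do not name the aligner, genome build or strand setting. Of 60 pairs of libraries within groups, 0 held identical values.

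Counts were tested with edgeR 4.0.16 (R 4.3.3): filterByExpr, TMM scaling, 1 mean per group over all 24 libraries, quasi-likelihood test, 2-sided, with Benjamini-Hochberg adjustment over all genes tested and a threshold of 0.05. A called gene passed that threshold. The fit was repeated from the filter on without C_MR_3438. Errors of log2 fold changes are standard errors, intervals cover 95% for 1 gene and are not adjusted, and CPM use the TMM library sizes. Alternatives were DESeq2 1.42.0 (test and size factors), limma-voom 3.58.1, upper quartile scaling, no filter, a filter of 1 CPM, 1 surrogate variable (sva 3.50.0), the compared groups alone, a threshold of 0.01 and each library left out. On simulated counts for 13287 genes with all libraries, 65.7%, 86.6% and 100% of genes changed 1.5-fold, 2-fold and 4-fold were recovered, and 5 of 173 calls were genes not changed. Without C_MR_3438, on 13333 genes, the shares were 55.2%, 86.6% and 100%, and 8 of 169 calls were genes not changed. The changed genes were drawn only from genes above a floor of mean reads. The shares therefore do not hold for genes of few reads. The simulation did not mimic the muscle RNA of C_MR_3438.

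The 13 library measures were compared by 2-sided exact permutation tests (scipy 1.17.1). Promoters came from RefSeq (GRCm38.p6). The genes named are the 15 largest rises and falls called in both fits with a mean log2 CPM of 1 or more, without predicted or clone symbols, the 4 members of smallest p in each of 17 of the 32 lists, all called members of the methionine cycle and reductase lists, and 31 genes set by role, apart from a few genes that are not reported here. Another 26 genes were named after their values were seen, to identify counts of 5 or fewer called members or for their promoter (Fabp1, Oas1a). The libraries compared and the gene lists were chosen with earlier results of these data known.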

Additional observations from a re-analysis of the deposited data

Results flagged for a closer look

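In 36 of 312 groups of 6 values checked, 1 library stood apart from the other 5 by more than Dixon's 95% critical value, and chance marks about 1 in 20 groups. Of the 36 values, 11 were those of C_MR_3438. These were the summed muscle genes at 3533 CPM, Acta1 at 644, Tnnc2 at 314, Ttn at 264, Tpm2 at 213, Ckm at 114, Myh4 at 51.5 and Des at 46.2 CPM. C_MR_3438 also had the lowest Igf1 of its group, 651 CPM, and the highest Nnmt, 8.05 CPM, and Dct, 0.273 CPM.

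C_MR_3431 had Hao2 at 7.55 CPM, Psma2 at 178, Psmb4 at 230.3 and Vil1 at 0.258. Its summed Kupffer cell and macrophage markers were at 1310.1 CPM and its summed endothelial markers at 742 CPM. C_MR_3412 stood apart for Fasn (216 CPM), Pex11a (801 CPM), Fbp1 (426 CPM) and Il1rn (10.6 CPM). C_MR_3433 stood apart for Ahsg (9242 CPM), Cpt1a (226 CPM) and P4hb (516 CPM), and C_MR_3419 for Pros1 (60.02 CPM).

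Among elemental MR libraries, E_MR_3405 had Acot2 at 122 CPM, Cbr3 at 4.17, Chdh at 124 and Txnrd1 at 101, and its 20 most abundant genes took 31.3% of counts. E_MR_3420 had Hsd3b5 at 76.5 CPM, Igtp at 66.8, Cdk1 at 2.76 and Cyp4a12a at 269. E_MR_3423 had Calr at 509 CPM, and E_MR_3403 had summed cholangiocyte markers at 42.5 CPM.

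For 57 of the 143 genes named, the difference between casein and elemental diets itself differed between MR and control diets by edgeR's quasi-likelihood test. Over all genes tested, 2.34% had such a difference called. Many of the named genes were chosen by their contrast on the MR diets, which is part of this test. The count and the signs below therefore follow in part from that choice. Each value below is the log2 difference on MR diets less that on control diets. Many genes of lipid handling were above 0: Mogat1 2.53, Ehhadh 2.4, Cyp4a14 2.17, Lpl 2.08, Cyp4a10 1.89, Acot2 1.68 and Vldlr 1.39. Also above 0 were Slc35f2 3.15, Krt23 2.53, Peg3 2.41, Sema5b 2.41, Adgrg2 2.33, Asns 1.78, Cbr1 1.19 and Gstm4 0.66. The apolipoprotein Apoa4 went the other way, at -2.51.

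Genes of methyl transfer and nitrogen disposal were below 0: Bhmt -2.74, Nnmt -2.58, Oat -1.16, Dmgdh -0.82, Ass1 -0.79, Gnmt -0.75 and Gamt -0.56. Many secreted proteins, though not Lpl, were below 0: Serpina12 -1.76, Orm1 -1.62, Lect2 -0.79, Ahsg -0.72, C8g -0.70, Hpx -0.55, C4bp -0.50, Igf1 -0.50, Itih4 -0.47, Trf -0.45, F10 -0.39, Fga -0.36, Alb -0.36, Serpinc1 -0.36 and Ttr -0.35. Of the periportal and bile genes, Apoa4 was at -2.51, Cyp2c70 at -1.48, Aldh1b1 at -1.47, Cyp2f2 at -1.22, Cdh1 at -0.65 and Abcb11 at -0.44.

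The largest falls showed it as well: Hsd3b5 -3.42, Ptgds -3.27, Vil1 -3.25, Dct -2.88, Ncam2 -2.8, Slc22a7 -2.16, Cenpm -2.09, Nat8 -1.99 and Mmd2 -1.95. The others were Gm4956 -2.61, Car3 -0.86, Gulo -0.84, Gckr -0.38 and P4hb -0.31.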

How the results depend on the processing

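The 873 genes called between the MR diets became 844 to 1011 under other scalings, filters, tests and models, 664 (without E_MR_3403) to 835 (without C_MR_3433) with 1 MR library left out, 821 (without E_C_3418) to 952 (without C_C_3407) with 1 control library left out, and 450 at an adjusted p under 0.01. Without both C_MR_3438 and C_MR_3425, an alternative chosen after seeing the data, it was 613. The 174 genes at 2-fold or more ran from 134 with the stricter filter to 241 with none, and from 135 to 192 with 1 MR library left out. Without C_MR_3438, the 696 calls ran from 511 to 669 with another MR library left out and stood at 384 at an adjusted p under 0.01, and the 135 at 2-fold ran from 116 to 140. Upper quartile scaling moved the split of the main calls from 365 higher and 508 lower to 394 and 450. On the control diets the 14 calls were 5 to 33 with 1 library left out, 73 with DESeq2, 3 with limma-voom, 7 with the compared groups alone and 3 at an adjusted p under 0.01. The 315 calls of the difference between the diets were 227 (without C_C_3413) to 404 (without C_C_3407) with 1 library left out, 458 with DESeq2 and 153 at an adjusted p under 0.01. The cause of these shifts was not tested.

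Of 120 called genes named here, 0 changed sign under any alternative, 104 passed the test under every other scaling, filter, test and model, and 97 did so without each MR library in turn. Off the muscle list, 96 of 113 did so without each library. Leaving out 1 library ended the calls of Acta1, Ckm, Tnnc2, Ttn and Des (C_MR_3438), H2-Q1 (E_MR_3423), Rora (E_MR_3403), Clec2h (E_MR_3416, E_MR_3420), Cyp2c50 (E_MR_3416, C_MR_3431), Myh4 (E_MR_3403, E_MR_3416, C_MR_3438), Pros1 (E_MR_3420, E_MR_3424, C_MR_3419), Tm7sf2 (E_MR_3403, E_MR_3416, C_MR_3419) and Alas2 (E_MR_3420, E_MR_3423, C_MR_3419, C_MR_3433). The same held for Calr (E_MR_3403, E_MR_3424, C_MR_3412, C_MR_3419, C_MR_3431), Cyp4a14 (E_MR_3403, E_MR_3416, E_MR_3420, E_MR_3424, C_MR_3425), Cyp51 (E_MR_3403, E_MR_3405, E_MR_3416, C_MR_3419, C_MR_3431), Dct (E_MR_3405, E_MR_3420, C_MR_3412, C_MR_3431, C_MR_3433) and Shmt2 (E_MR_3403, E_MR_3405, E_MR_3416, E_MR_3420, C_MR_3412, C_MR_3433). It held too for Cth (E_MR_3403, E_MR_3405, E_MR_3416, C_MR_3412, C_MR_3431, C_MR_3433, C_MR_3438), Chdh (E_MR_3403, E_MR_3416, E_MR_3420, E_MR_3423, E_MR_3424, C_MR_3425, C_MR_3433, C_MR_3438) and Rhbg (E_MR_3405, E_MR_3416, E_MR_3420, E_MR_3423, C_MR_3412, C_MR_3431, C_MR_3433, C_MR_3438), and for Ebp and Ntrk2 without any of 10 libraries each. Limma-voom did not call 12 of the 120, among them Hsd3b5 and Tpm2.

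Among genes that did not pass the test, leaving out 1 library moved the log2 fold change of Txnrd1 from -0.11 to 0.00456, Phgdh from -0.39 to 0.032, Gdf15 from -0.10 to 0.19, Scd1 from -0.13 to 0.14, Srebf1 from -0.039 to 0.14, Cpt1a from -0.074 to 0.049, Pck1 from -0.12 to 0.18, Msra from -0.043 to 0.0094 and Msrb1 from -0.065 to 0.00689. Phgdh was at 0.0029 and Pck1 at -0.0032 with 1 surrogate variable, and Scd1 was at 0.055 and Pck1 at -0.076 with limma-voom. Cpt1a was at 0.0017 with upper quartile scaling, 0.00037 with the stricter filter and 0.0074 with the compared groups alone. The difference in the mitochondrial share of counts ran from -0.207 to 0.0838 percentage points, and that in summed endothelial markers from -18.3 to 0.888 CPM. The difference in summed lymphocyte and neutrophil markers passed the test without C_MR_3425 (9.11 CPM, exact permutation p adjusted to 0.0113). No paired analysis was possible because the groups share no replicate numbers. Depth limits genes of few reads, such as Vil1, Dct and Hao2.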

Other observations

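Other gene groups of liver metabolism also held genes that edgeR called between casein MR and elemental MR. Of 31 genes of gluconeogenesis and glycolysis, 4 were called lower and 0 higher, against 3.78% and 2.72% of all genes, with a median log2 fold change of -0.17. They were ketohexokinase, Khk, which phosphorylates fructose (-0.43 ± 0.10, adjusted p = 0.00618), fructose bisphosphatase, Fbp1 (-0.35 ± 0.09, adjusted p = 0.0116), liver glycogen phosphorylase, Pygl (-0.35 ± 0.08, adjusted p = 0.0048), and the glucokinase regulator Gckr (-0.26 ± 0.07, adjusted p = 0.0134). Among 29 genes that build fatty acids and triglycerides, 1 was called lower, against 3.78% of all genes. The count was 2 without any of E_MR_3405, E_MR_3423 or C_MR_3412, and 3 with DESeq2. The 1 gene was Agpat2, an acyltransferase of triglyceride synthesis (-0.39 ± 0.08, adjusted p = 0.00184). Of 19 core clock genes 1 was called lower, Rora, a nuclear receptor (-0.31 ± 0.08, adjusted p = 0.0153), a call that was lost without E_MR_3403. For the triglyceride and clock lists the counts are near the 3.78% of all genes, so they are no result about these lists.

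In the endoplasmic reticulum, 2 of 24 genes of the unfolded protein response were called lower, against 3.78% of all genes, with a median of -0.11. P4hb, protein disulfide isomerase, ran from 529.97 to 591 CPM (median 571) in elemental MR and from 426 to 516 CPM (median 433) in casein MR (-0.35 ± 0.06, adjusted p = 0.000313), and Calr, calreticulin, differed by -0.32 ± 0.09 (adjusted p = 0.0223) and was not called when any 1 of 5 libraries was left out (adjusted p up to 0.0607, without E_MR_3403). The groups did not overlap for P4hb and did for Calr. Of 77 cytosolic ribosomal proteins 0 were called with all libraries by edgeR, with a median of -0.04. Of 24 cell cycle genes 1 was called higher, against 2.72% of all genes. It was Cdk1, the kinase of mitotic entry, which ran from 0.66 to 2.76 CPM (median 0.954) and from 1.79 to 3.73 CPM (median 2.87) (1.24 ± 0.30, adjusted p = 0.0097). Of 9 erythroid genes the 1 called lower was Alas2, the first enzyme of heme synthesis in red cells (-0.74 ± 0.20, adjusted p = 0.024), and it was not called when any 1 of 4 libraries was left out (adjusted p up to 0.0755, without E_MR_3423). Counts of 1 or 2 in lists of this size are near the shares over all genes and are no result about the lists.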
